A study of Mus musculus with 25 samples.

Results

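The comparison described here is the genotype by Ang/PE interaction in mouse heart: the change from saline to Ang/PE in hearts labelled MCT1KO minus the same change in wild-type (WT) hearts, on the log2 scale. It rests on 18 of the 25 hearts of the series, chosen by their titles: 6 WT hearts with saline, 4 hearts labelled MCT1KO with saline, 3 WT hearts with Ang/PE and 5 hearts labelled MCT1KO with Ang/PE. The 7 hearts without a pump (4 WT, 3 labelled MCT1KO) entered only as a second set of controls. A positive interaction means that a gene's level moved further up, or less far down, with Ang/PE in the hearts labelled MCT1KO than in WT. The question is how far the agonist responses of the genotypes agree or differ across 17682 tested genes. The labels give no strain, age, sex, dose, length of infusion or time of collection, no promoter or cell type for the deletion, and do not say whether hearts came from the same litters. Groups are separate hearts by their titles, so p-values measure the spread between hearts only.

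Ang/PE stands for neurohormonal agonists that cause myocardial hypertrophy, per the series description. Angiotensin II and the alpha-adrenergic agonist phenylephrine, the usual agents under that name, act on receptors coupled to Gq, which raise calcium and activate protein kinase C and calcineurin. Growing cardiomyocytes then re-express genes of the fetal heart, such as the natriuretic peptides and the slow myosin heavy chain Myh7, and fibroblasts lay down matrix. MCT1, encoded by Slc16a1, is a monocarboxylate transporter that carries lactate and pyruvate across membranes together with a proton, and the heart takes up lactate as a fuel that enters oxidation through pyruvate dehydrogenase.

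Slc16a1 RNA, the check of the genotype label, was present in every heart. Its level with saline was 165 to 249 CPM (median 190.0) in WT, and 153, 153, 194 and 132 CPM in the hearts labelled MCT1KO. With Ang/PE it was 217, 223 and 203 CPM in WT and 209, 162, 192, 213 and 173 CPM in the hearts labelled MCT1KO, where CPM are read counts scaled to a common library size. The groups overlapped, and the interaction was 0.15 (SE 0.20, edgeR adjusted p = 0.757). The counts cover the whole gene and the deleted part is not given, so the level does not check the deletion, and directions below rest on the label.

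Other properties of the libraries also differed between the 4 groups. Total counts ran from 12216704 to 19034565. An atrial score, the mean of log2(CPM + 0.5) over Myl4, Myl7 and Sln, was above 1 in 8 of the 10 saline hearts (5 of 6 WT, 3 of 4 labelled MCT1KO) and in 0 of the 8 Ang/PE hearts. The summed level of all 6 atrial markers was 153 to 3040 CPM in WT with saline, 156 to 7980 CPM in MCT1KO with saline, 237 to 369 CPM in WT with Ang/PE and 394 to 5190 CPM in MCT1KO with Ang/PE, where the natriuretic peptide gene Nppa made up most of it. Fat markers summed to 12.4 to 1610 CPM in the saline hearts labelled MCT1KO, with the highest value in replicate 4, against 13.5 to 59.8 CPM in WT with saline and at most 16.3 CPM in the Ang/PE hearts. Xist, expressed from the inactive X chromosome of females, was above 100 CPM in 1 of 6, 3 of 4, 3 of 3 and 4 of 5 hearts of the groups in the order given above. Without a pump it was above 100 CPM in 2 of 4 WT hearts and in 0 of 3 labelled MCT1KO. Sex was thus not balanced, and no Xist-negative WT heart with Ang/PE exists for an interaction within that sex. Values below among hearts with Xist rest on 1 WT saline heart, replicate 6, whose atrial score was 7.21. In whole-heart RNA, fewer cells of a type and less RNA per cell cannot be told apart.

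**Figure D1:**
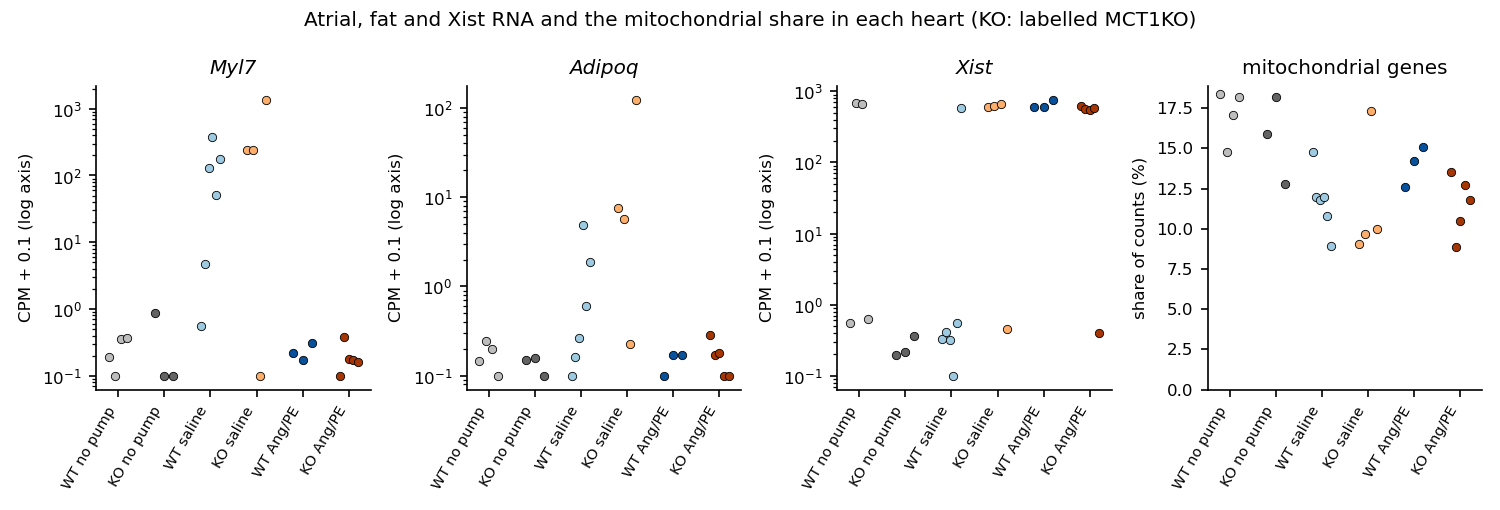
Level of the atrial myosin light chain Myl7, the fat gene Adipoq and Xist (CPM + 0.1, log axes) and the share of counts from mitochondrially encoded genes (%) in each of the 25 hearts, 1 point per heart, by group. Myl7 stood above 4 CPM in 8 saline hearts and below 1 CPM in all Ang/PE and no-pump hearts, and Xist separated the hearts into a set above 500 CPM and a set below 1 CPM.

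No gene passed for the interaction. In the edgeR quasi-likelihood test, 0 of 17682 genes (0.0%) had an adjusted p below 0.05, and the smallest adjusted p was 0.273. At an unadjusted p below 0.05 there were 2392 genes (13.5%), of which 1323 (7.48%) were positive and 1069 (6.05%) negative. DESeq2 called 13 genes (0.0735%), 12 positive and 1 negative. Among genes with a mean log2 CPM above 1, the median SE of the interaction was 0.19 and the median half-width of its 95% interval 0.40, so a difference between the genotypes smaller than that lies within the interval of a typical gene.

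Responses of the genotypes, which share no heart, pointed the same way in 57.0% of all genes. Across genes Pearson's r between the WT and the MCT1KO response was 0.52 and Spearman's coefficient 0.27, as a description, since genes are not independent replicates and all share the same 18 libraries. Agreement in sign was closer among the genes of smallest p in either genotype. Of the 500 genes of smallest p in the hearts labelled MCT1KO, 437 (87.4%) had the same sign in WT, and their median size was 1.10 in MCT1KO and 0.34 in WT. Of the 500 genes of smallest p in WT, 428 (85.6%) had the same sign in MCT1KO, with medians of 0.71 and 0.27. Either median shrinks in the genotype that was not used for choosing, so these medians do not rank the genotypes.

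The agreement differed with the saline hearts used, and the part of atrial RNA in it was not tested. Without the 8 saline hearts whose atrial score was above 1, which leaves 1 saline heart per genotype, r was 0.087 and the same-sign counts were 219 and 239 of 500. Against the no-pump hearts, none of which had atrial RNA, r was 0.36 and the counts were 424 and 400 of 500. With the atrial and fat scores as covariates r was 0.365.

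**Figure D2:**
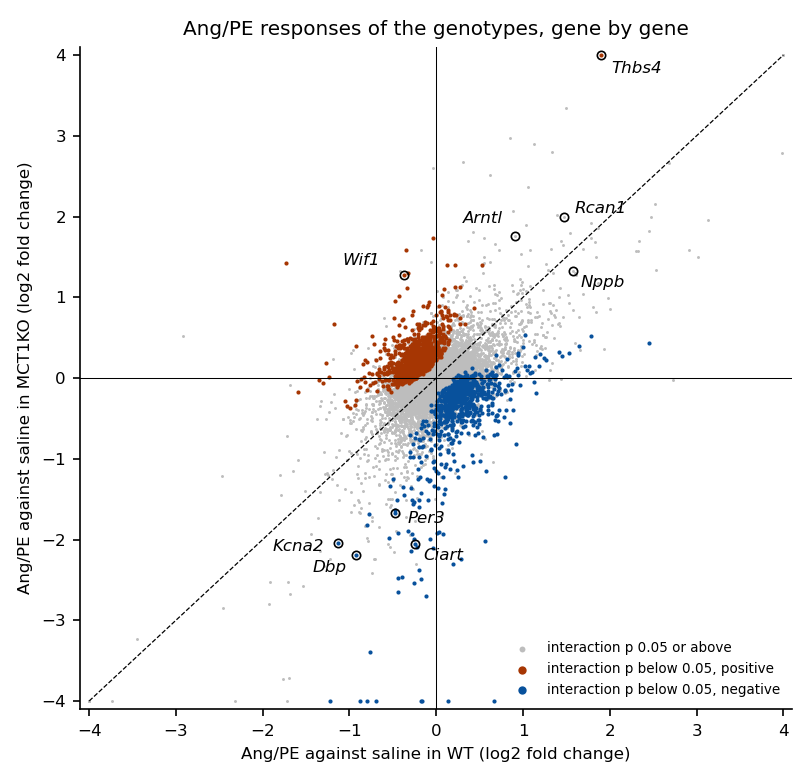
Log2 fold change from saline to Ang/PE in WT (x axis) and in hearts labelled MCT1KO (y axis), 1 point per gene with a mean log2 CPM above 1. Genes with an unadjusted interaction p below 0.05 are coloured, the dashed line marks equal responses, values beyond 4 are drawn at the edge, and circled genes are named in the text. Coloured genes lie mostly in the upper left and lower right quadrants, where the fitted responses have opposite signs.

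Genes at the low end of the interaction p mostly had responses of opposite sign, not a larger response in the same direction. Of the 2392 genes, 1986 (83.0%) had opposite signs in the genotypes, against 43.0% of all tested genes. Among the 1323 positive genes 1139 had a negative fitted response in WT and a positive one in MCT1KO, and among the 1069 negative genes 847 had the reverse. By genotype, 1265 of the positive genes were lower in MCT1KO than in WT with saline and higher with Ang/PE, and 1034 of the negative genes the other way round, where the genotype difference had opposite signs with saline and with Ang/PE in 54.68% of all genes. The genotype difference was larger with saline than with Ang/PE in 1355 of the 2392 (56.65%), against 54.07% of all genes. These counts follow partly from selecting on the interaction and carry no test.

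Dcaf5, a substrate receptor of CUL4 ubiquitin ligases, had the smallest p. With saline its level was 65.95 to 79.8 CPM (median 72.1) in WT, and 61.96, 58.2, 55.98 and 51.2 CPM in the hearts labelled MCT1KO. With Ang/PE it was 64.2, 61.2 and 53.1 CPM in WT and 72.04, 70.4, 75.9, 77.3 and 78.6 CPM in MCT1KO. Every WT heart was lower with Ang/PE than every WT heart with saline, and every heart labelled MCT1KO was higher with Ang/PE than any with saline. The responses were -0.30 in WT and 0.40 in MCT1KO, and the interaction was 0.69 (SE 0.13, 95% interval 0.43 to 0.96, edgeR adjusted p = 0.273).

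Htatip2, an oxidoreductase also known as TIP30, showed the same arrangement. It stood at 11.5 to 14.98 CPM (median 13.2) in WT with saline and 11.03, 9.29 and 9.58 CPM with Ang/PE. In the hearts labelled MCT1KO it stood at 10.2, 10.1, 10.7 and 10.3 CPM with saline and 11.8, 13.7, 11.5, 12.5 and 13.3 CPM with Ang/PE, an interaction of 0.67 (SE 0.13, adjusted p = 0.294). Neither genotype's saline and Ang/PE hearts overlapped.

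Chmp7, an ESCRT-III protein of nuclear envelope repair, was at 44.1 to 50.9 CPM (median 49.4) in WT with saline and at 37.7, 40.8 and 35.9 CPM with Ang/PE. Hearts labelled MCT1KO had 41.3, 41.2, 38.3 and 36.8 CPM with saline and 42.9, 47.6, 45.2, 42.6 and 45.1 CPM with Ang/PE. Its interaction was 0.52 (SE 0.11, adjusted p = 0.294), and neither pair of groups overlapped. Copg2, a subunit of the COPI vesicle coat, and Icmt, which methylates prenylated proteins, also had no overlap in either genotype, with interactions of 0.40 (SE 0.09, adjusted p = 0.294) and 0.52 (SE 0.13, adjusted p = 0.294).

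Cyp51, the sterol demethylase of cholesterol synthesis, overlapped in WT and not in MCT1KO. WT hearts had 12.005 to 16.3 CPM (median 15.8) with saline and 11.3, 12.2 and 12.1 CPM with Ang/PE, and the hearts labelled MCT1KO 12.9, 11.3, 11.1 and 10.5 CPM and 15.5, 21.4, 15.4, 13.7 and 14.2 CPM. The interaction was 0.83 (SE 0.18, adjusted p = 0.294), and replicate 2 of MCT1KO with Ang/PE was the highest heart. Park7, which encodes the redox protein DJ-1, and Ube2o, a ubiquitin-conjugating enzyme, had interactions of 0.78 (SE 0.18) and 0.70 (SE 0.16). In MCT1KO alone these genes rose, with edgeR adjusted p of 0.0148 for Dcaf5, 0.025 for Cyp51, 0.0349 for Park7 and 0.0421 for Ube2o.

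The remaining positive genes named by p were Sptb (beta-spectrin), Mthfd1 (an enzyme of folate one-carbon metabolism), Grip2 (a scaffold of glutamate receptors) and Wif1, with interactions of 0.86, 0.55, 1.08 and 1.65. Wif1, a secreted inhibitor of Wnt ligands, differed from the others in where it moved. Its level was 4.77 to 6.66 CPM (median 5.34) in WT with saline, 1.69, 1.898, 1.87 and 1.95 CPM in MCT1KO with saline, 4.95, 3.98 and 3.93 CPM in WT with Ang/PE and 4.66, 2.72, 5.49, 4.78 and 4.803 CPM in MCT1KO with Ang/PE. The 4 saline hearts labelled MCT1KO were below every heart of the other 3 groups, and Wif1 rose in MCT1KO (log2 fold change 1.27, edgeR adjusted p = 0.0181). Without a pump the spread was wide, at 3.47, 1.27, 1.498 and 2.79 CPM in WT and 1.47, 4.74 and 2.15 CPM in MCT1KO.

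**Figure D3:**
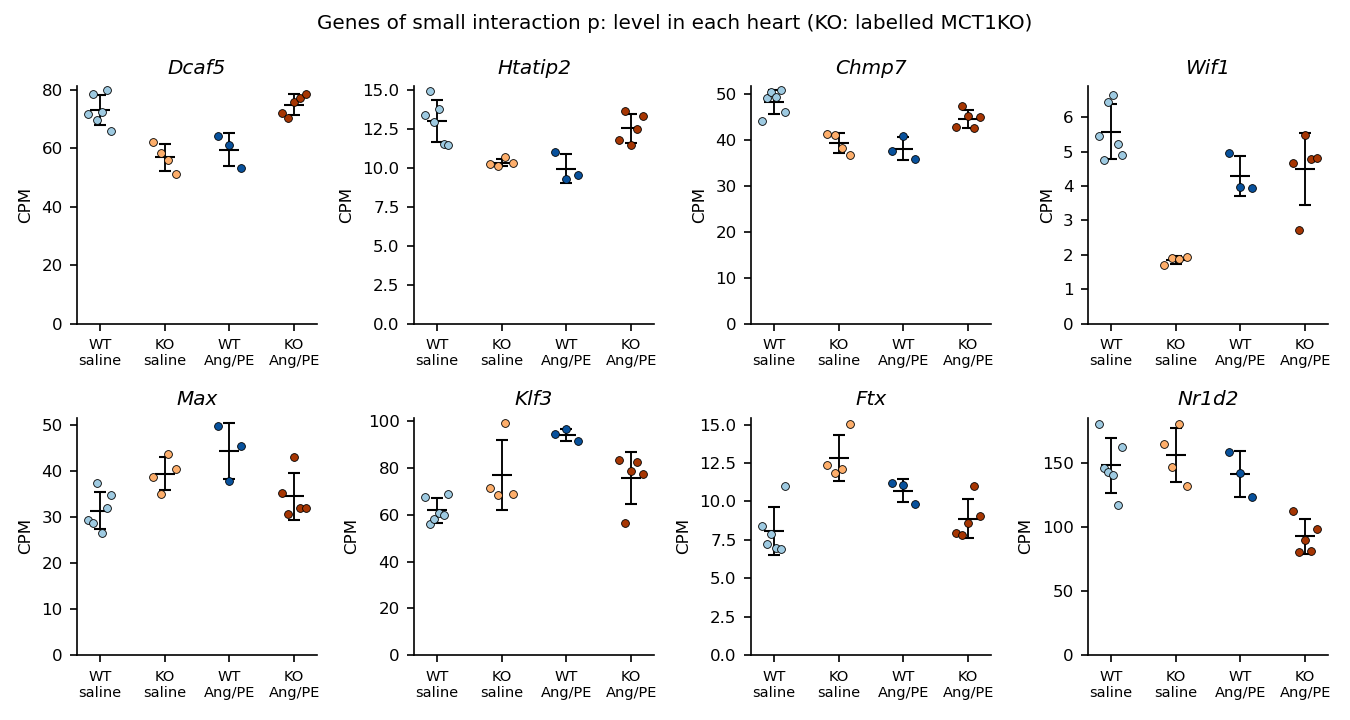
Level in CPM of 8 genes of small interaction p in each heart, by group, with the mean and SD of the group (n = 6, 4, 3 and 5 from left to right, axes from 0). Dcaf5, Htatip2 and Chmp7 sit lower with Ang/PE than with saline in WT and higher in hearts labelled MCT1KO, Wif1 is lowest in MCT1KO with saline, Max and Ftx show the opposite pattern in their means, Klf3 separates in WT and overlaps in MCT1KO, and Nr1d2 is lowest in MCT1KO with Ang/PE.

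Negative genes were led by N4bp2os, an RNA named as the opposite strand of N4bp2 (interaction -1.05, SE 0.26), for which reads of the partner cannot be told apart unless the counting used strand. Max, the DNA-binding partner of MYC, stood at 26.5 to 37.3 CPM (median 30.5) in WT with saline and at 49.8, 37.7 and 45.3 CPM with Ang/PE. In the hearts labelled MCT1KO it stood at 38.6, 34.9, 43.7 and 40.4 CPM with saline and 35.1, 30.5, 42.9, 31.8 and 31.8 CPM with Ang/PE. WT Ang/PE hearts were all above the WT saline hearts, the MCT1KO groups overlapped, and the interaction was -0.69 (SE 0.17, adjusted p = 0.294).

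Klf3, a transcriptional repressor, was at 56.1 to 68.9 CPM (median 60.4) in WT with saline and at 94.5, 96.9 and 91.6 CPM with Ang/PE. It was at 71.4, 68.5, 99.5 and 68.8 CPM in MCT1KO with saline, where replicate 3 was highest, and at 83.7, 56.6, 78.98, 82.8 and 77.3 CPM with Ang/PE, with an interaction of -0.63 (SE 0.17). Klf3 rose in the response averaged over the genotypes (log2 fold change 0.29, edgeR adjusted p = 0.0356), and the average joins a WT response of 0.61 beside one of -0.02 in MCT1KO. Shoc2, a scaffold of the RAS to RAF step, was of the same kind, with 0.35 in WT, -0.03 in MCT1KO and an interaction of -0.38 (SE 0.10).

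Ftx, a noncoding RNA of the X-inactivation centre, was at 6.92 to 11.02 CPM (median 7.56) in WT with saline, 12.4, 11.8, 12.1 and 15.04 CPM in MCT1KO with saline, 11.2, 11.04 and 9.86 CPM in WT with Ang/PE and 7.95, 7.82, 8.598, 10.99 and 9.07 CPM in MCT1KO with Ang/PE. The highest WT saline heart was replicate 6, the only one of that group with Xist, and the interaction of -0.94 (SE 0.24) was -0.77 with Xist as a covariate and -0.42 among hearts with Xist only. Oas1b and Sp110, both of interferon-responsive families, had interactions of -1.15 (SE 0.29) and -0.83 (SE 0.21). Mysm1, a histone H2A deubiquitinase, had -0.47 (SE 0.12).

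Stxbp6, a SNARE-binding protein, and Slc6a9, the glycine transporter GlyT1, passed in MCT1KO and not in WT, where the values were 0.03 and 0.02. Neither passed for the interaction, so this does not establish a difference between the genotypes. The interaction of Stxbp6 was -0.895 against saline and 0.108 against no pump. Stxbp6 fell in MCT1KO by 0.87 on the log2 scale (edgeR adjusted p = 0.011), from 9.83, 10.3, 13.1 and 17.5 CPM with saline to 8.96, 6.63, 6.05, 7.03 and 6.18 CPM with Ang/PE, while WT had 7.15 to 9.95 CPM (median 8.04) and 9.54, 7.69 and 7.86 CPM. Slc6a9 fell by 1.18 (edgeR adjusted p = 0.011), with 3.698, 3.599, 3.69 and 6.67 CPM in MCT1KO with saline, of which replicate 4 was the highest, and 1.83, 2.37, 1.51, 2.02 and 1.98 CPM with Ang/PE. Slc25a24, a mitochondrial carrier of ATP-magnesium and phosphate, was at 6.08 to 8.34 CPM (median 7.27) in WT with saline and 10.6, 9.99 and 12.2 CPM with Ang/PE, without overlap, and had an interaction of -0.76 (SE 0.20).

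Groups that do not overlap give a count that needs no model. In WT, 1130 genes (6.39%) were higher in every Ang/PE heart than in every saline heart and 1266 (7.16%) lower, and in the hearts labelled MCT1KO 541 (3.06%) and 417 (2.36%). Both genotypes separated in the same direction for 37 genes upward (0.209%) and 43 downward (0.243%). They separated in opposite directions for 19 genes that were lower in WT and higher in MCT1KO (0.107%) and for 4 with the reverse (0.0226%). The counts depend on group size, which differs between the genotypes. The joint counts were not set against what the shares in each genotype would give by themselves, so they do not show that crossing was common.

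Dcaf5, Htatip2, Chmp7, Copg2 and Icmt are 5 of the 19. Others, chosen after their values were seen, were Vcp, a hexameric ATPase that extracts proteins for degradation (interaction 0.60, SE 0.17), Dync1h1, the heavy chain of dynein (0.51, SE 0.17), Alpk3, a muscle kinase (0.62, SE 0.20), and Mybpc3, cardiac myosin-binding protein C (0.86, SE 0.31). Against the no-pump hearts 7 genes (0.0396%) were lower in WT and higher in MCT1KO and 10 (0.0566%) the reverse, and 1 gene crossed in the same sense against both kinds of control. By comparison 18 of the 80 genes that separated in the same direction in both genotypes did so against both controls; the comparisons share the Ang/PE hearts.

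DESeq2 called Dcaf5, Htatip2, Cyp51, Chmp7, Sptb, Mthfd1, Park7, Ube2o and Copg2, all of which also lead the edgeR order, together with 4 genes outside it. Uty, Eif2s3y and Kdm5d are Y-linked. Uty was at 0 to 42.3 CPM (median 35.5) in WT with saline, 0, 0.0654, 0.0625 and 42.8 CPM in MCT1KO with saline, 0, 0 and 0 CPM in WT with Ang/PE and 0, 0, 0, 0 and 42.9 CPM in MCT1KO with Ang/PE. The hearts with Uty at 0 or below 0.1 CPM were those with Xist. Prkar2b, a regulatory subunit of protein kinase A, was at 1.003 to 5.87 CPM (median 2.06) in WT with saline and 7.92, 5.24, 1.69 and 189.8 CPM in MCT1KO with saline, and at 2.51, 2.03 and 2.14 CPM and 1.37, 1.54, 1.19, 2.02 and 1.801 CPM with Ang/PE. Its value of -4.83 rests on MCT1KO saline replicate 4, the heart with the most fat RNA; among the fits that leave out 1 heart it ran from -5.28 to -1.49.

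A response shared by the genotypes was measured as the mean of their changes from saline to Ang/PE. It passed in 1435 genes (8.12%) in the edgeR test, 688 risen (3.89%) and 747 fallen (4.22%), and 370 of these changed at least 2-fold. The fallen genes included 5 of 6 atrial markers and 5 of 7 tested fat markers, against 4.22% of all genes. With the atrial and fat scores as covariates 0 genes passed, and the part of atrial and fat RNA in this response was not tested. By genotype, 3 genes passed in WT (0.017%, 6 saline and 3 Ang/PE hearts) and 788 in the hearts labelled MCT1KO (4.46%, 4 and 5 hearts). The 3 WT genes were Rnf144b and Rnf2, which rose, and Prr29, which fell. Among genes with a mean log2 CPM above 1, the median SE of the response was 0.14 in WT and 0.13 in MCT1KO. Both counts differed with the fit: DESeq2 gave 641 in WT and 1224 in MCT1KO. Without MCT1KO saline replicate 4 they were 190 and 39. Of the 1435 genes, 186 (12.96%) had an interaction p below 0.05, close to the 13.5% of all genes, 742 had the larger change in MCT1KO, and in 91 (6.34%) the 95% interval of the interaction lay inside plus or minus the averaged change. For the other genes the data do not set whether the responses were alike.

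Rnf144b, a RING ubiquitin ligase, was the clearest risen gene, from 27.99 to 31.8 CPM (median 30.8) to 70.1, 54.2 and 62.2 CPM in WT and from 29.7, 34.6, 42.4 and 26.4 CPM to 51.5, 32.4, 48.1, 51.9 and 56.97 CPM in MCT1KO. Its averaged log2 fold change was 0.78 (SE 0.10, edgeR adjusted p = 0.000534), with 1.03 in WT and 0.53 in MCT1KO (interaction, adjusted p = 0.316). WT groups did not overlap, and replicate 2 of MCT1KO with Ang/PE lay within its saline range. Tgm2, a transglutaminase that crosslinks proteins, had the reverse order, with 0.33 in WT and 0.67 in MCT1KO (averaged 0.50, adjusted p = 0.00129).

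Plekhg2, a guanine nucleotide exchange factor, rose alike by its fitted values, at 0.54 in WT and 0.54 in MCT1KO, with an interaction interval from -0.36 to 0.36. Plekho1 had 0.27 and 0.74, Clic5 0.44 and 0.87, and Rai14, an actin-binding protein, 0.79 and 0.68. Arhgef37, Plekhg1 and Rusc2 were also among the risen genes of smallest p, with averaged values of 0.85, 0.63 and 0.35.

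A potassium channel and a protease were among the fallen genes. Kcna2, the potassium channel Kv1.2, was at 4.39 to 6.88 CPM (median 5.65) in WT with saline and 2.56, 2.59 and 2.64 CPM with Ang/PE, and at 6.18, 5.17, 4.19 and 17.3 CPM and 1.55, 2.23, 2.79, 1.87 and 1.501 CPM in MCT1KO, with no overlap in either genotype. It fell by 1.59 on the log2 scale on average (SE 0.23, adjusted p = 0.00129), and its interaction of -0.91 was -0.26 in the leave-one-out fit nearest to 0. Mmp9, a matrix metalloproteinase, had -0.79 in WT and -1.82 in MCT1KO, and MCT1KO saline replicate 4 had the highest level of Kcna2 and Mmp9. Prr29, Fkbp10 (a collagen chaperone), Cfap61, Stard3, Tspan4, Dbp and Selenbp1 were also among the fallen genes of smallest p, with averaged values from -1.81 to -0.45.

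The narrowest limits on a difference between genotypes were for Lsm14a, Tmem184b, Foxk2, Prdm2, Llgl1 and Plekha2. Lsm14a, a protein of RNA processing bodies, had responses of 0.19 in WT and 0.23 in MCT1KO by the fit, and the interval of the interaction ran from -0.13 to 0.21. Tmem184b gave -0.17 to 0.18 and Foxk2 -0.22 to 0.17. These genes were selected for a small error, and their averaged changes were 0.21 at most in size.

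Genes of the hypertrophic response were examined as lists. In the hypertrophy and fetal gene programme, 5 of 13 tested members rose in the averaged response (Nppb, Myh7, Xirp2, Rcan1 and Fhl1) and none fell, against 3.89% risen and 4.22% fallen of all genes, and no member had an unadjusted interaction p below 0.05. The median response was 0.24 in WT and 1.25 in MCT1KO, against -0.01 in both for all genes, and the median interaction was 0.50. That median interaction ran from 0.205 to 1.395 when single hearts were left out. In WT with Ang/PE, replicate 3 stood far above replicates 1 and 2 for the risen members Nppb, Myh7, Xirp2 and Rcan1. It had 855, 1458, 4986 and 464 CPM, so the WT responses of these 4 genes rest largely on 1 of 3 hearts.

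Myh7, the slow beta-myosin heavy chain, was at 268 to 613 CPM (median 385) in WT with saline, 689, 659.5, 239 and 197 CPM in MCT1KO with saline, 643, 356 and 1458 CPM in WT with Ang/PE and 937, 3865, 1435, 639 and 4667 CPM in MCT1KO with Ang/PE. Within MCT1KO the groups overlapped, and replicates 2 and 5 stood far above replicates 1, 3 and 4. Myh7 rose on average (log2 fold change 1.72, SE 0.40, edgeR adjusted p = 0.0136), and the interaction was 1.31 (SE 0.81).

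Rcan1, a calcineurin-regulated inhibitor of calcineurin, was at 55.05 to 91.7 CPM (median 79.7) in WT with saline and 76.9, 90.1 and 464 CPM with Ang/PE, where only replicate 3 of the 3 WT hearts lay above the saline range, and the fitted WT response was 1.48. In the hearts labelled MCT1KO it was at 63.97, 68.3, 67.04 and 37.8 CPM with saline and 379.5, 277, 162, 186 and 178 CPM with Ang/PE, with all 5 above the saline hearts. Xirp2, an actin-binding protein of the intercalated disc, had the same shape, with 1394, 1325 and 4986 CPM in WT and 3599, 3947, 2120.1, 2429 and 2994 CPM in MCT1KO under Ang/PE against a highest saline level of 1445 CPM. The interactions of Rcan1 (0.52, SE 0.58) and Xirp2 (0.50, SE 0.43) had edgeR adjusted p of 0.714 and 0.624. Leaving out single hearts moved them between 0.12 and 1.83 for Rcan1 and between 0.19 and 1.40 for Xirp2.

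Nppb, the B-type natriuretic peptide, was at 99.1 to 166 CPM (median 153) in WT with saline and 210.3, 158, 297 and 80.2 CPM in MCT1KO. With Ang/PE it was at 159, 229 and 855 CPM in WT and 425, 805, 281, 388 and 441 CPM in MCT1KO, and it rose on average (log2 fold change 1.45, adjusted p = 0.0195). Nppa, the atrial natriuretic peptide, did not pass, with 44.5 to 1459 CPM (median 714) in WT with saline and 1689, 1366, 62.5 and 3706 CPM in MCT1KO with saline, groups that hold the 8 hearts with atrial RNA.

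Of 33 tested genes of fibrillar matrix and activated fibroblasts 10 rose on average, against 3.89% of all genes, and none fell. Thbs4 alone, 1 of 33 and so below the 7.48% of all genes, had a positive interaction at an unadjusted p below 0.05. The median response was 0.32 in WT and 0.62 in MCT1KO. Thbs4, thrombospondin-4, was at 1.802 to 11.8 CPM (median 3.42) in WT with saline, 4.38, 5.24, 2.44 and 3.07 CPM in MCT1KO with saline, 11.9, 7.76 and 33.4 CPM in WT with Ang/PE and 10.1, 167, 63.1, 18.2 and 181 CPM in MCT1KO with Ang/PE. Replicates 2 and 5 of MCT1KO, the hearts highest in Myh7, were again highest. The averaged log2 fold change was 3.22 (SE 0.54, adjusted p = 0.004) and the interaction 2.64 (SE 1.08, adjusted p = 0.325). Postn, periostin of activated fibroblasts, had 79.8, 79.4 and 159 CPM in WT and 73.96, 548, 159, 77.9 and 492 CPM in MCT1KO with Ang/PE, and an interaction of 0.63 (SE 0.80).

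Some immediate early and heat shock genes rose in the averaged response, against 3.89% of all genes, and none passed for the interaction. Atf3, Myc, Maff and Ccn1 were the 4 of 22 immediate early genes that rose, with interactions between -1.21 and -0.09. Hspa1a, Hspa1b, Hspb1, Hsph1, Hspa8 and Hsp90b1 were the 6 of 17 heat shock and unfolded protein genes that rose. Hspa1a, an inducible chaperone, was at 2.39, 2.096 and 349 CPM in WT and 306, 68.8, 2.87, 2.69 and 8.105 CPM in MCT1KO with Ang/PE and at most 11.03 CPM in the saline hearts. WT replicate 3 and MCT1KO replicates 1 and 2 were the high hearts behind its averaged value of 4.79, and the interaction of -1.22 had an interval from -5.31 to 2.87.

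Adult contractile and calcium-handling genes gave the list with the largest share of positive interactions at an unadjusted p below 0.05. All 17 tested members had a positive interaction, as did 8415 of the 17682 genes tested, and 8 of the members were at an unadjusted p below 0.05 against 7.48% of all genes, and the median was 0.45. The median response was -0.13 in WT and 0.38 in MCT1KO. In the averaged response Casq2 and Slc8a1 rose (3.89% of all genes) and none fell.

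Casq2, the calcium buffer of the sarcoplasmic reticulum, was at 500.1 to 679.8 CPM (median 648) in WT with saline and 615, 653 and 571 CPM with Ang/PE. It was at 525, 513, 613 and 415 CPM in MCT1KO with saline and 751, 799, 755, 783 and 833 CPM with Ang/PE, where all 5 hearts were above every other heart of the 4 groups, and its interaction was 0.64 (SE 0.17, adjusted p = 0.294). Slc8a1, the sodium-calcium exchanger, had 0.04 in WT and 0.44 in MCT1KO (interaction 0.40, SE 0.14). Mybpc3 was at 4506 to 5813 CPM (median 4902) in WT with saline and 4392, 4226 and 4447 CPM with Ang/PE, and at 4940.0, 4882, 3362 and 1523 CPM and 5646, 6674, 6004, 5155 and 5648 CPM in MCT1KO. Ttn, the giant sarcomere spring titin, had an interaction of 0.70 (SE 0.29, adjusted p = 0.325).

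Ventricular and atrial RNA also differed between the groups, and their part in this list was not tested. The ventricular markers Myl2, Myl3, Myh6 and Tnni3 are themselves members of the list. The ventricular sum therefore partly repeats the list's own values and is not a separate measure. Summed ventricular markers were at 22400 to 38400 CPM in MCT1KO with saline, against 38100 to 46400 CPM in WT with saline, 32600 to 39300 CPM in WT with Ang/PE and 29400 to 42400 CPM in MCT1KO with Ang/PE. The list's median interaction was 0.339 to 0.549 without single hearts, with the lowest value without MCT1KO saline replicate 4. It was 0.271 with the atrial and fat scores as covariates, 0.359 without the saline hearts with atrial RNA and 0.163 among hearts with Xist. Against no pump it was 0.092.

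Lists of fuel use had smaller median interactions than the contractile list, and no member passed for the interaction. In the list of glucose uptake and glycolysis 17 of 20 tested genes had a positive interaction, with 6 positive and 1 negative at an unadjusted p below 0.05, against 7.48% and 6.05% of all genes, and a median of 0.31. Median interactions were 0.29 in the tricarboxylic acid cycle and malate-aspartate shuttle (3 of 20 positive at p below 0.05), 0.26 in pyruvate dehydrogenase and its regulators (3 of 12), 0.24 in fatty acid uptake and oxidation (2 of 24) and 0.15 in nuclear respiratory chain subunits (3 of 54). The count for fatty acid oxidation is near the share of all genes and that for the respiratory chain below it. These 5 lists had a negative median response in WT and a positive one in MCT1KO. The 13 mitochondrially encoded messenger RNAs did not, with medians of 0.31 in WT, 0.17 in MCT1KO and -0.17 for the interaction, which was positive in 3 of them. The median of the respiratory chain list turned to -0.138 with the atrial and fat covariates, -0.358 without the saline hearts with atrial RNA, -0.178 among hearts with Xist and -0.017 without MCT1KO saline replicate 4. That of fatty acid oxidation was 0.011 without the saline hearts with atrial RNA and -0.002 among hearts with Xist, and that of the mitochondrial messenger RNAs 0.158 with GC and length offsets, 0.121 with the replicate block and -0.313 to 0.218 without single hearts. Among hearts with Xist, which hold 1 WT saline heart, the medians of glycolysis, the tricarboxylic acid cycle and pyruvate dehydrogenase were 0.040, 0.015 and 0.032.

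Pdpr, the regulatory subunit of pyruvate dehydrogenase phosphatase, was at 144 to 212 CPM (median 181) in WT with saline and 152, 151 and 121 CPM with Ang/PE, and at 139, 135, 131 and 114 CPM and 173, 127, 160.0, 170.4 and 134 CPM in MCT1KO (interaction 0.59, SE 0.20, adjusted p = 0.294). Ogdh, of the oxoglutarate dehydrogenase complex, Dlat, the acetyltransferase of pyruvate dehydrogenase, and Pfkm, the muscle phosphofructokinase, had interactions of 0.60 (SE 0.24), 0.43 (SE 0.18) and 0.52 (SE 0.23). With the no-pump hearts as controls the values were -0.23, -0.11, 0.01 and -0.12 in the same order, and the list medians were 0.080 for glycolysis, -0.008 for the tricarboxylic acid cycle, 0.007 for pyruvate dehydrogenase and -0.114 for fatty acid oxidation.

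Some glycolytic genes departed from this. Pfkp, the platelet phosphofructokinase, was the only one of the list to rise on average (adjusted p = 0.00474), by 0.59 in WT and 0.59 in MCT1KO, with no overlap between saline and Ang/PE in either genotype. Pfkfb3, which makes an activator of phosphofructokinase, had an interaction of -2.06 (SE 0.70) and 1 heart far above the others. It was at 27.8, 22.4, 19.3 and 208 CPM in MCT1KO with saline and 19.2 to 22.4 CPM (median 21.6) in WT with saline.

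Of the genes around lactate itself, none of 10 passed in any comparison or had an interaction p below 0.05. Ldha and Ldhb, the lactate dehydrogenase subunits, had interactions of 0.13 (SE 0.15) and 0.45 (SE 0.26), and Mpc1, of the mitochondrial pyruvate carrier, -0.09 (SE 0.21). Slc16a7 (MCT2) was at 9.59 to 20.8 CPM (median 14.01) in WT with saline, 21.7, 20.1, 19.99 and 27.7 CPM in MCT1KO with saline, 14.9, 14.8 and 13.4 CPM in WT with Ang/PE and 13.8, 12.7, 14.5, 20.9 and 12.5 CPM in MCT1KO with Ang/PE, an interaction of -0.53 (95% interval -1.11 to 0.05). Slc16a3 (MCT4) had -0.60 (95% interval -1.57 to 0.37).

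**Figure D4:**
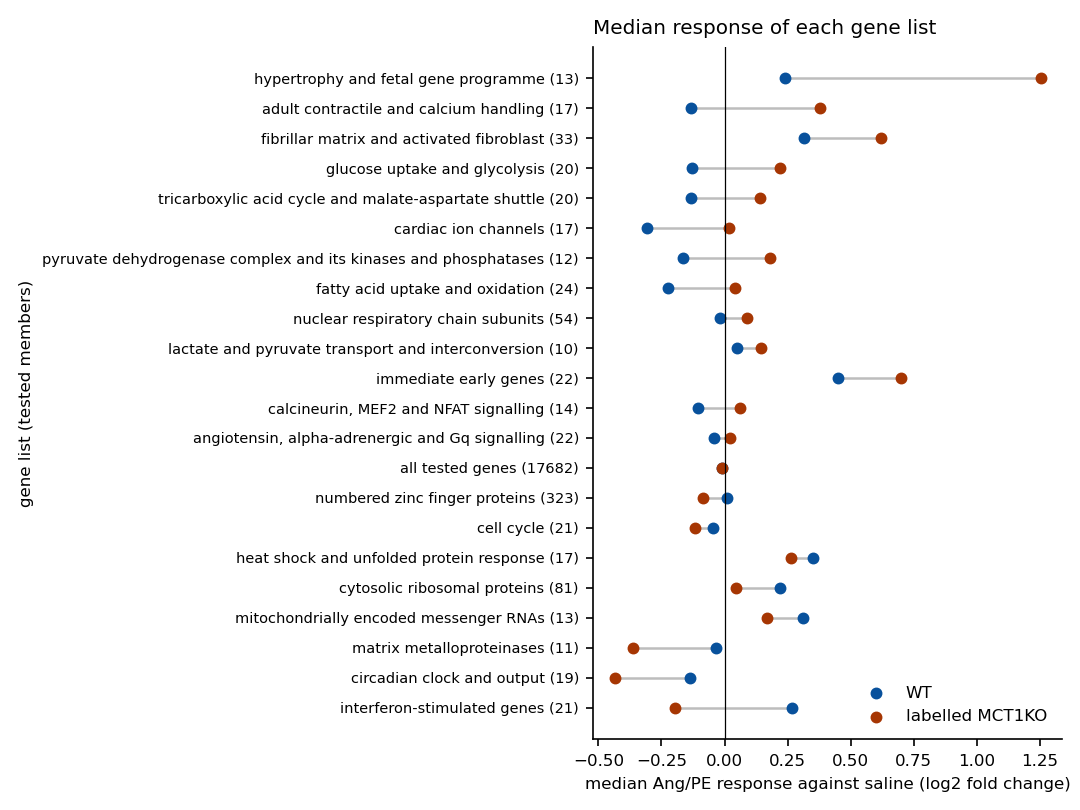
Median log2 fold change from saline to Ang/PE over the tested members of each gene list (number in brackets) in WT and in hearts labelled MCT1KO, ordered by the median interaction. Contractile and fuel lists other than those of lactate and of mitochondrially encoded messenger RNAs lie left of 0 in WT and right of 0 in MCT1KO, the clock list lies further left in MCT1KO, and the points for all 17682 genes coincide near 0.

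Clock genes formed the list with the largest share of negative interactions at an unadjusted p below 0.05. The circadian clock is a loop in which ARNTL (BMAL1) with CLOCK or NPAS2 drives the genes of its own repressors (PER, CRY, NR1D1, NR1D2) and of the output factors DBP, TEF and HLF through E-boxes. RNA of these genes swings over the day in heart. Of 19 tested members 4 rose (Arntl, Clock, Npas2 and Nfil3) and 7 fell (Per3, Cry2, Nr1d1, Nr1d2, Dbp, Tef and Hlf) in the averaged response, against 3.89% risen and 4.22% fallen of all genes. In 18 of 19 the change was larger in the hearts labelled MCT1KO in the averaged direction. The share over all tested genes was not counted, and among the 1435 genes that passed in the averaged response it was 742. Genes of 1 loop move together, so the 18 are not independent of each other. At an unadjusted interaction p below 0.05, 7 members were negative and 1 positive, against 6.05% and 7.48% of all genes. None passed adjustment for the interaction. Nfil3 was at 9.36, 8.46 and 60.3 CPM in WT and 51.9, 13.6, 15.7, 12.6 and 11.6 CPM in MCT1KO with Ang/PE, and at most 9.66 CPM with saline. WT replicate 3 and MCT1KO replicate 1 stood far above the others.

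Some start sites show the motifs of this loop. RefSeq windows from 250 bases before to 50 after the start (GRCm38.p6) were at hand for 16 of the 19 genes, in 21 windows. The E-box CACGTG occurs in 6 windows of 5 of these genes (Bhlhe41, Ciart, Cry1, Per1 and Tef) and in 7.15% of all 32851 windows. The D-box TTATGTAA, on either strand, occurs in Per3 only and in 0.938% of all windows, and the ROR half-site AGGTCA, on either strand, in 5 genes (Arntl, Clock, Nfil3, Nr1d2 and Per1) and in 16.3% of all windows. Windows of Ciart, Per3 and Nr1d2 are printed because these genes had interactions of -1.80, -1.19 and -0.68 and show 1 kind of match each. Capitals mark the E-boxes in Ciart (chr3:95882179-95882478, minus strand), the D-boxes in Per3 (chr4:151044616-151044915, minus strand) and the ROR half-site in Nr1d2 (chr14:18239057-18239356, minus strand).
Ciart: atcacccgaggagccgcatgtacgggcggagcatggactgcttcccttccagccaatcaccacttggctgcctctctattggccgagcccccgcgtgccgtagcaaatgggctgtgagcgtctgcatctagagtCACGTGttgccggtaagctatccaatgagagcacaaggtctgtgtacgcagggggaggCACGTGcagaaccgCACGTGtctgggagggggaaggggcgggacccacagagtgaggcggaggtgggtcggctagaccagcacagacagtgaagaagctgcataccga
Per3: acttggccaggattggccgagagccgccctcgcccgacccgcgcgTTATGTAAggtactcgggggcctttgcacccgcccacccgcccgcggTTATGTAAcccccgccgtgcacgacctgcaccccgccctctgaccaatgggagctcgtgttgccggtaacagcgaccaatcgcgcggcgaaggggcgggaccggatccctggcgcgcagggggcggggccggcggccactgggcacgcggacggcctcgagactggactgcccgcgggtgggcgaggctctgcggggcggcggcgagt
Nr1d2: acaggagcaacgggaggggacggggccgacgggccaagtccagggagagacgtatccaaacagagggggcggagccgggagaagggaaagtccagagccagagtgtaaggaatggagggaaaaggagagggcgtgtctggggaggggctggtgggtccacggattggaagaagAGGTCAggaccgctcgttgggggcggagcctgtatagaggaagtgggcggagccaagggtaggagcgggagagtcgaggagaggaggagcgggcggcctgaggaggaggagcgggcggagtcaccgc

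A match is a description of letters and no site of binding was measured. Ciart, a repressor of CLOCK and ARNTL with 3 E-boxes in its window, was at 4.01 to 18.4 CPM (median 6.92) in WT with saline, 20.9, 14.1, 10.997 and 5.07 CPM in MCT1KO with saline and 13.7, 5.52 and 6.003 CPM in WT with Ang/PE. In MCT1KO with Ang/PE it was at 4.21, 2.79, 2.23, 2.99 and 3.24 CPM, below all MCT1KO saline hearts, and the interaction was -1.80 (SE 0.76, adjusted p = 0.33).

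Per3, a period gene, was at 46.98 to 85.4 CPM (median 63.8) in WT with saline and 92.6, 80.4, 50.9 and 81.04 CPM in MCT1KO. With Ang/PE it was at 61.4, 46.1 and 30.9 CPM in WT and 23.3, 24.997, 28.2, 19.3 and 23.95 CPM in MCT1KO. The MCT1KO groups did not overlap, the WT groups did, and the interaction was -1.19 (SE 0.37, adjusted p = 0.294).

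Nr1d2, which encodes the repressor REV-ERB beta, was at 117 to 180.3 CPM (median 144) in WT with saline and 159, 142 and 123 CPM with Ang/PE, and at 165, 146, 180.0 and 132 CPM and 113, 80.6, 89.8, 81.4 and 98.2 CPM in MCT1KO. It fell in MCT1KO by 0.75 on the log2 scale (edgeR adjusted p = 0.00498) against a value of -0.07 in WT, and the interaction was -0.68 (SE 0.18, adjusted p = 0.294). Dbp, an output factor, was at 88.3, 53.7 and 37.2 CPM in WT and 37.6, 25.2, 27.1, 11.6 and 27.9 CPM in MCT1KO with Ang/PE, from 82.8 to 146 CPM (median 109.5) and 153, 127, 79.7 and 110.4 CPM with saline. Its interaction was -1.26 (SE 0.47), and Per2, Tef, Hlf and Cry2 had -1.17, -0.50, -0.73 and -0.45.

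Arntl moved the other way. It was at 5.17 to 11.6 CPM (median 9.49) in WT with saline, 4.86, 6.35, 11.6 and 10.9 CPM in MCT1KO with saline, 9.36, 18.03 and 22.3 CPM in WT with Ang/PE and 21.1, 31.2, 27.5, 31.998 and 30.6 CPM in MCT1KO with Ang/PE. WT replicate 1 lay within the saline range, replicates 2 and 3 above it, and all 5 hearts labelled MCT1KO lay above every saline heart. The interaction was 0.85 (SE 0.44, adjusted p = 0.393).

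The comparison with the no-pump hearts as controls shares the Ang/PE hearts with the saline comparison. In it 12 clock genes had a negative and 2 a positive interaction at an unadjusted p below 0.05, against 960 of all genes (5.43%) in either direction. Xist was above 100 CPM in 0 of 3 no-pump and 4 of 5 Ang/PE hearts labelled MCT1KO, and in 2 of 4 and 3 of 3 WT hearts. The part of sex in these values was not tested. Per3 had -1.84 (adjusted p = 0.89), Dbp -1.87 (adjusted p = 0.89), Tef -0.93 (adjusted p = 0.89) and Arntl 1.38 (adjusted p = 0.89), and no gene of the table passed adjustment there. The no-pump hearts were spread in these genes as well: Dbp was at 48.1, 55.3, 98.4 and 93.99 CPM in WT and 61.1, 154 and 136 CPM in MCT1KO. Without the saline hearts with atrial RNA the value of Per3 was -0.23 and that of Nr1d2 -0.63. Time of collection is not in the labels, so a difference in time of day between groups was not tested.

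**Figure D5:**
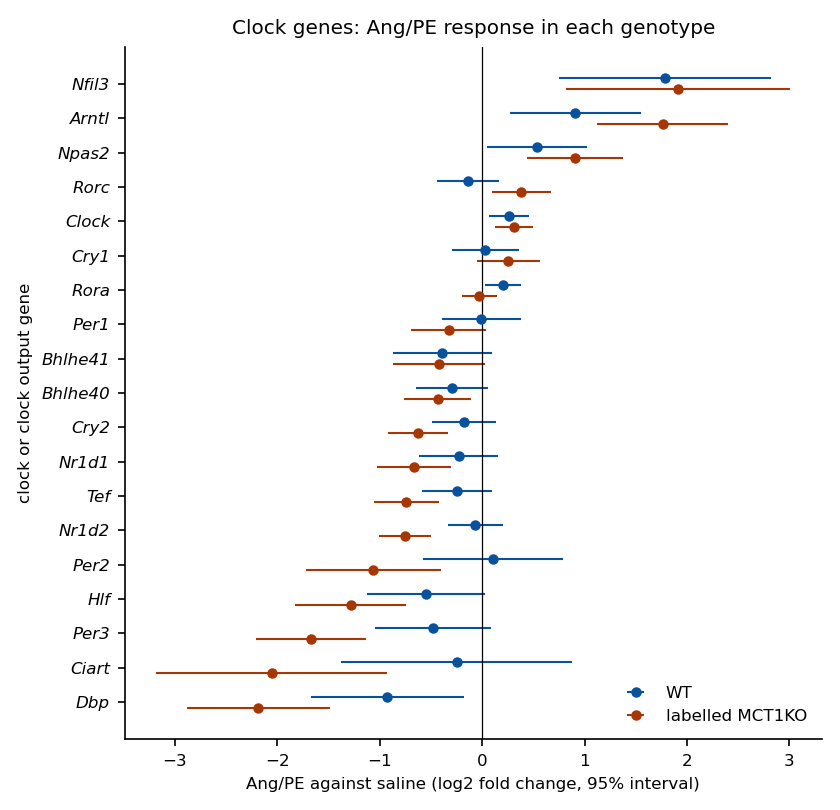
Log2 fold change from saline to Ang/PE with its 95% interval for 19 clock and clock output genes in WT and in hearts labelled MCT1KO, ordered by the MCT1KO value. Per2, Hlf, Per3, Ciart and Dbp lie further left in MCT1KO than in WT, and Arntl lies further right.

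Interferon-stimulated genes had mostly negative interactions. Of 21 tested members 20 had a value below 0, where 8415 of the 17682 genes tested lay above 0, and 3 were negative at an unadjusted p below 0.05, against 6.05% of all genes. Their medians were 0.27 in WT, -0.20 in MCT1KO and -0.37 for the interaction, and none passed in the averaged response. Oasl2 was at 8.39 to 13.96 CPM (median 10.4) in WT with saline, 12.8, 11.8, 14.2 and 20.2 CPM in MCT1KO with saline, 13.1, 12.9 and 17.4 CPM in WT with Ang/PE and 7.41, 13.6, 11.9, 11.7 and 11.6 CPM in MCT1KO with Ang/PE (interaction -0.81, SE 0.28, adjusted p = 0.295). Xaf1 had -0.52 (SE 0.20). Against no pump the list's median was 0.011, and it was -0.184 with Xist as a covariate and -0.033 among hearts with Xist.

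In other lists the counts at an unadjusted p below 0.05 are to be read against 7.48% positive and 6.05% negative of all genes. Calcineurin, MEF2 and NFAT signalling had 3 of 14 members at a positive interaction p below 0.05 and a median of 0.05. Receptors and Gq signalling had 2 positive and 1 negative of 22, with a median of 0.05; Adrb1, the beta-1 adrenergic receptor, fell on average (log2 fold change -0.63, edgeR adjusted p = 0.0104) and Plcb4 rose (0.30, adjusted p = 0.0348). Cardiac ion channels had 3 positive and 1 negative of 17. Cell cycle genes had 1 positive of 21 and cytosolic ribosomal proteins 2 negative of 81, both below those shares. The negative counts of Gq signalling and of ion channels were also near or below their share. Among marker lists, endothelial markers had a median interaction of 0.002, smooth muscle and pericyte markers -0.04, leukocyte markers -0.17 and resting fibroblast markers -0.37. Red blood cell markers had 0.74, with all 5 members positive and 0 at an unadjusted p below 0.05. Their median ran from 0.172 to 1.529 without single hearts. Summed levels of these lists overlapped between all 4 groups.

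Base composition moved with the sign of the interaction. The median GC content of the longest transcript was 52.9% in the 1323 positive genes and 44.6% in the 1069 negative ones, against 49.0% for all tested genes. From the lowest to the highest of 4 bins of GC content the median interaction was -0.18, -0.03, 0.05 and 0.10, and the median WT response 0.13, 0.02, -0.06 and -0.14, while the MCT1KO medians lay between -0.034 and 0.005. With offsets for GC content and length fitted per library the 4 medians lay between -0.019 and 0.001, and the fit gave 1203 positive and 942 negative genes at an unadjusted p below 0.05. Dcaf5 then had 0.61 and Nr1d2 -0.56.

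Many values differed when the no-pump hearts took the place of the saline hearts. Both comparisons use the same Ang/PE hearts, and none of the no-pump hearts labelled MCT1KO had Xist. Against no pump the averaged response passed in 274 genes (1.55%), 161 risen and 113 fallen, of which 174 also passed against saline in the same direction. The interaction of Dcaf5 was 0.09 there, of Htatip2 0.21, of Cyp51 0.24, of Chmp7 0.23 and of Park7 0.51. For Max it was -0.39, for Klf3 -0.19 and for Shoc2 -0.04. Tgm2 (0.58, adjusted p = 0.89) and Plekho1 (0.55, adjusted p = 0.89) had larger values against no pump than against saline, as did Per3, Dbp, Tef and Arntl. With the atrial and fat scores as covariates no gene passed in the averaged response (0 genes in edgeR, 1454 at an unadjusted p below 0.05), and 369 passed with Xist as a covariate.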

How the data were processed

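Total RNA of 25 mouse hearts was depleted of ribosomal RNA and made into stranded libraries, per the labels' protocols. The authors deposited 1 table of raw read counts for 56941 genes. STAR 2.7.9a, cutadapt 1.16, featureCounts 1.6.3, DESeq2 1.42.1 and the build GRCm39 are named in the submitters' processing notes without their roles; the annotation release and the strand setting of the counting are not given in the sources used here.

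Counts were filtered by group with edgeR 4.0.16 (R 4.3.3), which kept 17682 genes, scaled by the TMM method and fitted with robust quasi-likelihood models on all 25 hearts in 6 groups, which share 1 estimate of spread (common biological coefficient of variation 0.196, 19 residual degrees of freedom). Tests were two-sided, with Benjamini-Hochberg adjustment over all 17682 genes. A gene is said to rise, fall or pass at an adjusted p below 0.05. CPM are counts divided by the TMM-scaled library size. The averaged response is the mean of the changes in both genotypes, and responses are log2 fold changes. Alternatives were other scalings, DESeq2 1.42.0, no filter, fewer hearts, a replicate block, covariates for Xist or for atrial and fat scores, offsets for GC content and length (mgcv 1.9.3), other controls and each heart left out. Scripts were tested on simulated data.

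Named genes were the 12 positive and 12 negative genes of smallest interaction p, the 10 risen and 10 fallen of the averaged response (1 of the fallen is not reported here), 6 with opposite responses and 6 with the narrowest interaction interval, with a mean log2 CPM above 1, predicted models left out, plus list members. These members and lists were chosen with earlier results of these data known. Libraries of a group differed by more than sampling noise (chi-square per degree of freedom at least 3.33 over 34 pairs). Gene names, GC content and length came from a GRCm38 annotation; the promoter windows are RefSeq's.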

Additional observations from a re-analysis of the deposited data

Results flagged for a closer look

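Single hearts stood apart from the rest of their group in 34 of 270 gene and group combinations tested (90 genes). Chance alone would flag about 13.5. The genes were chosen with these data seen and share the same hearts, so the comparison with 13.5 carries no test. Values below are log2 CPM, with the range of the other hearts of the group, and no cause was tested. Replicate 4 of MCT1KO with saline, the heart with the highest atrial and fat scores, was highest for Slc6a9 at 2.76 against 1.89 to 1.93, Mmp9 at 3.19 against 1.76 to 1.94, Nr1d1 at 7.53 against 7.13 to 7.19, Pfkfb3 at 7.70 against 4.28 to 4.8. It was lowest for Clic5 at 7.45 against 8.28 to 8.40, Xirp2 at 9.14 against 10.13 to 10.21, Rcan1 at 5.25 against 6.00 to 6.10, Dlat at 8.0 against 8.34 to 8.36, Ldhb at 8.75 against 9.84 to 9.95.

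Replicate 3 of the same group, the one without atrial RNA, was highest for Klf3 at 6.64 against 6.10 to 6.16, Lsm14a at 5.98 against 5.74 to 5.75, and lowest for Cfap61 at 1.93 against 3.05 to 3.22. In MCT1KO with Ang/PE, replicate 2 was highest for Cyp51 at 4.43 against 3.79 to 3.96 and lowest for Wif1 at 1.51 against 2.26 to 2.49, Klf3 at 5.83 against 6.28 to 6.39, Ttn at 15.78 against 16.21 to 16.38. Replicate 1 of that group was highest for Nfil3 at 5.70 against 3.55 to 3.98 and lowest for Npas2 at 2.93 against 3.64 to 3.93, Oasl2 at 2.91 against 3.56 to 3.78, replicate 4 was highest for Slc16a7 at 4.39 against 3.66 to 3.87, and replicate 5 was lowest for Mpc1 at 6.80 against 7.09 to 7.19. In WT with saline, replicate 6 was highest for Prr29 at 2.80 against 2.13 to 2.32 and lowest for Casq2 at 8.97 against 9.28 to 9.41, replicate 5 was lowest for Mthfd1 at 5.08 against 5.19 to 5.25, and replicate 3 was lowest for Rnf144b at 4.81 against 4.94 to 5.00.

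The Y-linked genes Uty, Eif2s3y and Kdm5d gave 9 of the 34. WT saline replicate 6, the heart of that group with Xist, was lowest at -3.10 for each of them. MCT1KO saline replicate 4 was highest at 5.42, 4.74 and 5.08, and MCT1KO Ang/PE replicate 5 at 5.43, 4.99 and 4.82; these are the hearts without Xist in groups where the others have it.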

How the results depend on the processing

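The interaction gave 0 genes in every edgeR fit, also when any single heart was left out (0 to 0), and 13 with DESeq2; at an unadjusted p below 0.05 it gave 2392 genes, and 491 among hearts with Xist. The averaged response gave 1435 genes, against 847 without the count filter, 904 with only the 18 hearts, 369 with Xist as covariate, 0 with atrial and fat covariates, 274 with no-pump controls, 0 without the saline hearts with atrial RNA, 56 among hearts with Xist, and 348 (without WT Ang/PE replicate 3) to 2716 (without MCT1KO saline replicate 3) when single hearts were left out. For WT alone the 3 genes became 27 with RLE scaling, 641 with DESeq2, 10 without the filter, 1 with the 18 hearts, 37 in the non-robust fit, 26 without mitochondrial genes, 0 with Xist or with tissue covariates, 1 with GC offsets, 0 against no pump, 1 without the atrial saline hearts, 7 among hearts with Xist, and 1 to 316 with single hearts left out. For MCT1KO the 788 genes became 1224 with DESeq2, 452 without the filter, 437 with the 18 hearts, 1 with tissue covariates, 89 against no pump, 0 without the atrial saline hearts, 0 among hearts with Xist, and 39 (without MCT1KO saline replicate 4) to 1541 (without replicate 3). The correlation of 0.523 was 0.461 with DESeq2, 0.163 without the filter, 0.363 with Xist, 0.365 with tissue covariates, 0.360 against no pump, 0.087 without the atrial saline hearts, and 0.400 to 0.567 with single hearts left out. Of 500 MCT1KO genes, 403 had the same direction in WT with the 18 hearts, 393 with Xist, 406 with tissue covariates, 219 without the atrial saline hearts and 409 to 467 with single hearts left out; of 500 WT genes, 411, 372, 396 and 239 did so in the same order, 400 against no pump and 375 to 468 with single hearts left out. Against no pump the interaction reversed to -0.222 for Wif1, 0.108 for Stxbp6 and 0.143 for Slc25a24. The cause of these moves was not tested. The fits without atrial saline hearts and among hearts with Xist were added after the data were seen. The first leaves 1 saline heart per genotype and the second 1 WT saline heart, each assumed to vary like the others.

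Same-numbered hearts of different groups had a mean correlation of their deviations of 0.033 over 22 pairs, from -0.397 to 0.424. Of 18 hearts, 4 correlated best with their own number. The labels do not say whether the numbers pair hearts. These correlations cannot decide it, since the deviations are from means of few hearts. With the replicate block the interaction gave 0 genes (3301 at an unadjusted p below 0.05), the averaged response 715, or 807 with GC offsets, and WT alone 0 with GC offsets. The correlation with the block was 0.324, or 0.334 with GC offsets, and the same-direction counts 329 and 308, or 327 and 336 with GC offsets.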
